A study of Mus musculus with 4 samples.

Results

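Prl8a2, Tpbpa, Ascl2, Gcm1 and Elf5 mark the trophoblast of the placenta and the maternal decidua that surround a mouse embryo in the uterus. They were picked by name, with results of these arrays in view, as 5 of the 27573 genes on a whole mouse genome array, and each is measured by 1 of its 41174 non-control probes. The tissue was the posterior end of embryos with 5 to 6 somites, cut at the last somite boundary, in pools of 10 embryos. Cdx2+/-Cdx4-/- mutants, which are heterozygous for Cdx2 and lack Cdx4, homeobox factors of the posterior axis, were set against wildtype embryos. The RNAs of both genotypes met on each of 4 Agilent 2-colour arrays of 1 slide, labelled as 2 replicates, each with a dye swap. Whether the replicates were separate pools is not stated, so every error given measures the spread between hybridisations and may be technical only.

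The labels do not settle which RNA was in which dye. Array 1 (replicate 1) and array 3 (replicate 2), which have the same labelled orientation, correlated at r = -0.43 across 21815 probes in the log ratio, and so did arrays 2 and 4, the dye swaps. The arrays were therefore turned so that the Cdx4 ratio was negative on each, at -2.59, -2.11, -2.82 and -2.42 (log2) on arrays 1 to 4. The channel with less Cdx4 is called Cdx4-low RNA and the other Cdx4-high RNA. Cdx2, by its brightest probe, read -0.77, -0.50, -0.45 and -0.45 (log2, Cdx4-low over Cdx4-high RNA) on arrays 1 to 4. Which labels are right was not tested. By the labels of arrays 1 and 4 the Cdx4-low RNA is the mutant. By the labels of arrays 2 and 3 it is the wildtype, and then each sign and each count of higher and lower genes given here turns round. So aligned, the Cdx4-low RNA was in Cy5 on both arrays of replicate 1 and in Cy3 on both arrays of replicate 2, and the spread between the 2 replicates and a bias of the dyes cannot be told apart. All 8 of 8 markers of the posterior embryo (T, Tbx6, Wnt3a, Fgf8, Cyp26a1, Hes7, Dll1 and Msgn1) were well above background in all 8 channel measurements, that is, both dyes on 4 arrays.

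Decidua is the uterine stroma that transforms around an implanting embryo, and it is maternal tissue. Trophoblast is the outer, embryo-derived lineage: its stem cells lie in the extraembryonic ectoderm, and its descendants form the chorion, the ectoplacental cone, the spongiotrophoblast and the giant cells that border the decidua. Prl8a2 encodes decidual prolactin-related protein, a hormone-like member of the prolactin family made by decidual cells. Elf5 is an ETS transcription factor of trophoblast stem cells and extraembryonic ectoderm. Ascl2 is an imprinted basic helix-loop-helix factor of the ectoplacental cone, Tpbpa a secreted protein of the ectoplacental cone and spongiotrophoblast, and Gcm1 the factor that directs chorionic trophoblast to branch and fuse into syncytiotrophoblast.

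Of the 5 genes, Prl8a2, Elf5 and Ascl2 were well above background by Agilent's flag in all 8 channel measurements, Tpbpa was so in 1 and Gcm1 in 0. Over all genes, 54% had a probe well above background on all 4 arrays in at least 1 of the RNAs, and 31.9% had none above background in any channel. The same split appeared against the 153 negative control spots of the array. The 99th percentile of those spots lay between 7.45 and 41.3 units of background-subtracted signal over the channels. Prl8a2, Elf5 and Ascl2 exceeded it in 8 of 8 measurements, Tpbpa in 2 and Gcm1 in 0. Since the tissue was pooled, fewer cells of a type and less RNA per cell cannot be told apart in any of these values.

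Prl8a2 had by far the widest difference between the RNAs among the 5 genes. Its background-subtracted signal was 142, 183, 86.0 and 83.2 units in Cdx4-low RNA on arrays 1 to 4, against 462, 549, 798 and 726 units in Cdx4-high RNA. Within each dye the RNAs did not overlap: in Cy5 the Cdx4-low RNA gave 142 and 183 units and the Cdx4-high RNA 798 and 726, and in Cy3 the Cdx4-low RNA gave 86.0 and 83.2 units and the Cdx4-high RNA 462 and 549. Such a difference towards a lower Cdx4-low signal was present for 15.8% of 14842 genes, so the separation itself was common and the size of it was not. Agilent's processed signals, which are also normalised between the dyes, were 142, 137, 123 and 120.3 units in Cdx4-low RNA and 669, 673, 618 and 585 units in Cdx4-high RNA.

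**Figure D1:**
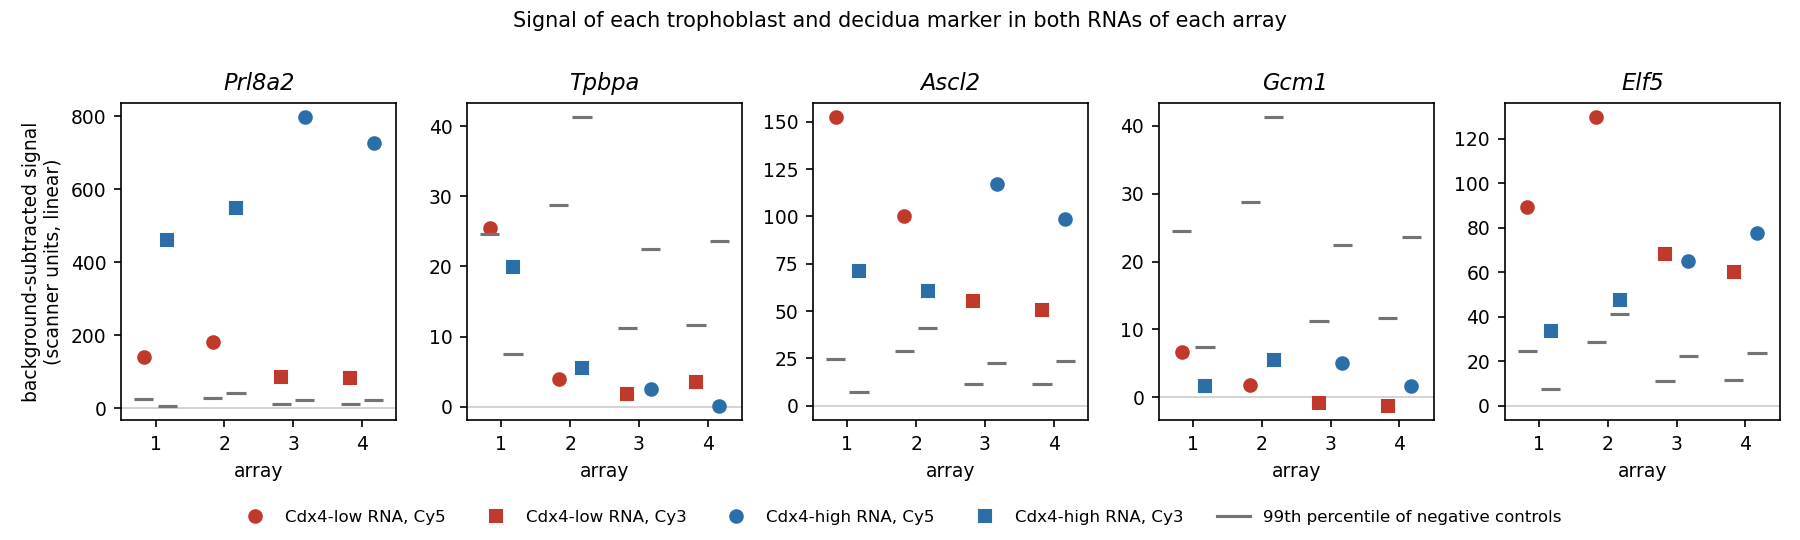
Background-subtracted signal (y axis, linear scanner units, scaled separately for each gene) of the 5 markers on arrays 1 to 4 (x axis), with Cdx4-low RNA (red) left of Cdx4-high RNA (blue), Cy5 as circles and Cy3 as squares, and grey bars at the 99th percentile of the negative control spots of the same channel. Prl8a2 lies at 83.2 to 183 units in Cdx4-low RNA and 462 to 798 units in Cdx4-high RNA, whereas Gcm1 stays under the grey bars in every channel.

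In the log2 ratio of Cdx4-low over Cdx4-high RNA, after normexp background correction and loess normalisation, Prl8a2 was at -1.42, -1.03, -1.75 and -1.42 on arrays 1 to 4. The mean was -1.41 ± 0.25 (SD of the 2 labelled replicates, n = 2), which is 2.65-fold lower in Cdx4-low RNA. Only Afp, Cdx4 and Rian had a lower mean ratio among the 14887 genes tested, named here after their values were seen. Because Prl8a2 was chosen with this contrast known, its ratio is a description and no p-value is given. Where Prl8a2 adds to a count of called genes below, that is not separate evidence. As the labels stand, with no alignment, the same ratios read -1.42, 1.03, 1.75 and -1.42 and average -0.014.

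The size of the Prl8a2 difference depended on the background correction, while its sign did not. Fitted on all spots, normexp left the negative controls with 31.3 to 418 units after correction. Fitted without the 858 to 1679 spots per array whose signal or local background Agilent marked as outliers, an alternative chosen after seeing the data, it left them with 11.9 to 20.3 units. The added units compress the ratio of a dim probe towards 0. Under that alternative the Prl8a2 ratios were -1.73, -1.88, -1.85 and -1.70, with a mean of -1.79 ± 0.02 (SD, n = 2), or 3.45-fold lower in Cdx4-low RNA. With Agilent's processed signals they were -2.23, -2.29, -2.33 and -2.28, with a mean of -2.29 ± 0.03 (SD, n = 2), or 4.87-fold lower. Prl8a2 had the fourth lowest ratio of the tested genes in all 3 treatments.

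Elf5, the trophoblast stem cell factor, lay the other way. Its background-subtracted signal was 89.2, 129.6, 68.3 and 60.2 units in Cdx4-low RNA on arrays 1 to 4, against 33.6, 47.6, 64.8 and 77.5 units in Cdx4-high RNA. Within each dye the RNAs did not overlap, with the Cdx4-low signal above, as for 6.38% of 14842 genes. The log2 ratios were 0.24, 0.08, 0.45 and 0.23, all positive, with a mean of 0.25 ± 0.12 (SD, n = 2), or 1.19-fold higher in Cdx4-low RNA. Without replicate 2 the mean was 0.16. It was 0.39 ± 0.05 with the background estimated without outlier spots and 0.80 ± 0.01 (1.74-fold higher) with processed signals.

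Ascl2, the ectoplacental cone factor, was detected but showed no steady difference. Its background-subtracted signal was 152, 100.4, 55.1 and 50.7 units in Cdx4-low RNA, against 71.3, 60.5, 117 and 98.6 units in Cdx4-high RNA. The brighter values were those in Cy5 in both RNAs, and in Cy5 the RNAs overlapped. The log2 ratios of 0.31, 0.03, -0.13 and -0.04 had no common sign, and the mean of 0.04 ± 0.18 (SD, n = 2) was smaller than the spread between the replicates.

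Tpbpa and Gcm1 had signals at or near the level of negative control spots. Tpbpa gave 25.5, 3.98, 1.84 and 3.52 units in Cdx4-low RNA and 19.95, 5.55, 2.57 and 0.148 units in Cdx4-high RNA, and the flagged measurement was Cdx4-low RNA in Cy5 on array 1. Gcm1 gave 6.73, 1.87, -0.785 and -1.22 units in Cdx4-low RNA and 1.61, 5.45, 5.03 and 1.68 units in Cdx4-high RNA. Neither gene has a fold change, since in neither RNA did they exceed background on every array, and their transcripts were not detectable at this signal rather than shown to be absent.

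**Figure D2:**
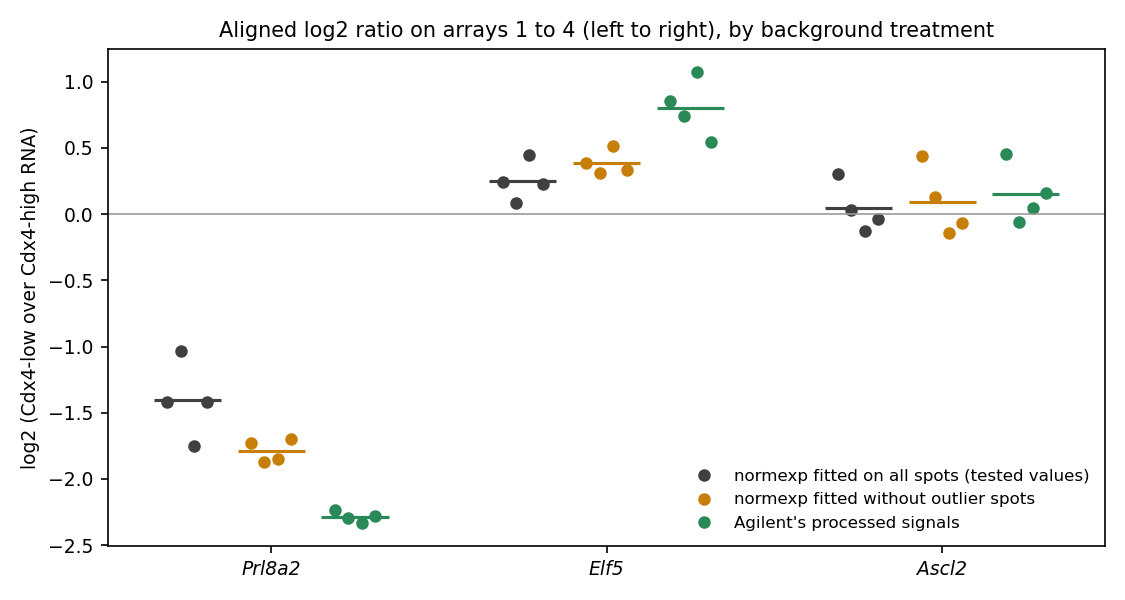
Aligned log2 ratio of Cdx4-low over Cdx4-high RNA (y axis) of the 3 detected markers on arrays 1 to 4 (points, left to right) with the mean (bar), under 3 treatments of background. Prl8a2 is negative on every array, with means of -1.41, -1.79 and -2.29, Elf5 is positive on every array, and the points of Ascl2 lie on both sides of 0.

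The Prl8a2 probe (A_51_P497044, filed under the older name Dtprp) lies at chr13:27361377-27361436 on mm8, within the cluster on chromosome 13 that holds the prolactin family. The other probes are A_51_P455866 for Elf5 at chr2:103251640-103251699, A_51_P469147 for Ascl2 at chr7:142777924-142777983, A_51_P137926 for Tpbpa at chr13:60949555-60949614 and A_51_P130905 for Gcm1 at chr9:77850861-77850920. All 5 were matched to their genes by RefSeq accession, and their exon or UTR was not looked up because no annotation on mm8 was used here.

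The prolactin family lets Prl8a2 be seen beside its closest relatives, most of which are hormones of trophoblast. The array names 23 of its genes, all on chromosome 13, with 29 probes. Of them 6 were well above background in all 8 channel measurements (Prl2c3, Prl2c5, Prl3d1, Prl3d2, Prl4a1 and Prl8a2), 6 in some and 11 in none. The share over all genes with none was 31.9%. With Prl3b1, 7 genes could be tested. At an adjusted p under 0.05 (limma, Benjamini-Hochberg over all 14887 genes), 3.23% of all genes were higher and 4.33% lower in Cdx4-low RNA. Pairing the arrays so that each mean held both dye orientations called 22.5% higher and 19.5% lower. In the family 3 genes rose and 1 was lower, Prl8a2, which was chosen on this contrast. Of the 7 mean ratios 6 were above 0, with Prl3b1 at only 0.04. The median over all genes was 0.01, and the share of all genes above 0 was not counted.

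The genes that rose are giant cell hormones. Prl3d1 and Prl3d2 encode placental lactogen I, and Prl2c5 is one of the proliferins. The log2 ratio (± moderated SE) was 0.33 ± 0.10 for Prl3d1 (limma adjusted p = 0.0368), 0.36 ± 0.10 for Prl3d2 (limma adjusted p = 0.021) and 0.39 for Prl2c5 (limma adjusted p = 0.0127). The other Prl2c5 probe, also above background throughout, read 0.15, and the call took the brighter probe. The Prl2c5 call was not followed through the settings given below for the Prl3d genes. In processed signal Prl3d1 had 475, 436, 408 and 388 units in Cdx4-low RNA and 294, 275, 303 and 326 units in Cdx4-high RNA. These did not overlap, and the share of all genes without overlap in processed signal was not counted. In background-subtracted signal the Cdx4-low RNA of Prl3d1 lay above within each dye, as for 6.38% of 14842 genes. The calls of Prl3d1 and Prl3d2 ended with arrays 1 and 4 alone, at ratios of 0.33 and 0.39 (limma adjusted p = 0.114 and 0.0529). They ended with arrays 2 and 3 alone, at 0.34 and 0.34 (limma adjusted p = 0.125 and 0.132). Median centring, which moved the median of all genes to 0.28, ended both calls at 0.53 and 0.46 (limma adjusted p = 0.763 for each). So did testing with no filter on dim probes (limma adjusted p = 0.143 and 0.131). The Prl3d genes, like the Prl2c genes, are near-identical copies, so their probes can share signal and are not independent.

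**Figure D3:**
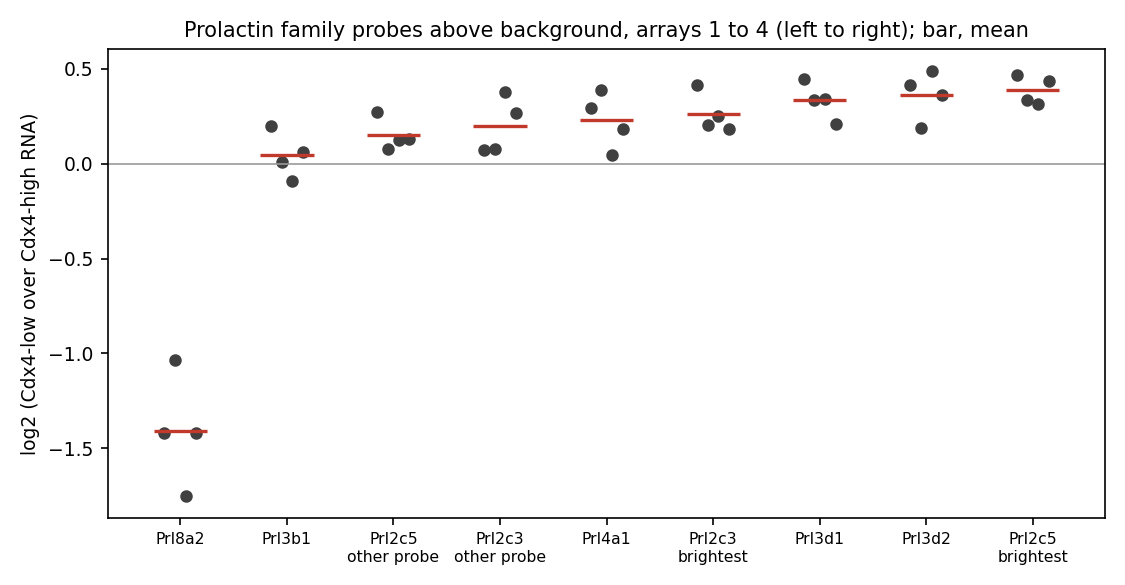
Aligned log2 ratio of Cdx4-low over Cdx4-high RNA (y axis) of each prolactin family probe above background on arrays 1 to 4 (points, left to right) with the mean (bar). Prl8a2 lies at -1.75 to -1.03, and the mean of every other probe shown is above 0.

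Prl8a2 is also 1 of 12 genes in a list of decidual stroma markers, all on the array, of which 6 were tested. Prl8a2, chosen on this contrast, was the only gene of the list past the threshold, and the median ratio of the tested genes was -0.04, against 0.01 over all genes. The other tested genes were Bmp2, Hand2 and Wnt4, developmental signalling and transcription factor genes, Cryab, a small heat shock protein gene, and Dio2, a deiodinase gene. Bmp2 read -0.26 (limma adjusted p = 0.129). It passed as lower with the background estimated without outlier spots (-0.37, adjusted p = 0.0424) and with processed signals (-0.50, adjusted p = 0.0317). Dio2 read -0.12 (limma adjusted p = 0.578) and passed with processed signals (-0.76, adjusted p = 0.00645). Dio2 was well above background in only 5 channel measurements, so 1 of the RNAs was not so on every array. The size of its processed ratio therefore rests partly on signal not clear of background. The list thus held 2 lower genes, Prl8a2 included, under the first of these treatments. It held 3 under processed signals, with the partly detected Dio2 among them. Of all genes tested, 5.65% and 7.05% were lower under these treatments.

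The 6 genes of the decidual list that were not tested ranged from partly detected to undetected. Il11, a cytokine gene, was well above background in 5 of 8 measurements and Cyp11a1, a steroid-making enzyme gene, in 4. Pgr (progesterone receptor) and Esr1 (oestrogen receptor) were so in 1 of 8 each, and Prl6a1, another decidual prolactin, in 0.

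The sixth, Prl3c1, a prolactin of the early decidua, was seen at the limit of detection. It was well above background in 3 of 8 measurements, all of them Cdx4-high RNA. Its background-subtracted signal was 6.40, 23.4, 0.685 and 5.81 units in Cdx4-low RNA on arrays 1 to 4, against 22.8, 29.2, 28.6 and 32.6 units in Cdx4-high RNA. The Cdx4-low signal was lower on each array but stayed under the 99th percentile of the negative controls. On array 2 the Cdx4-high signal of 29.2 units was also under that percentile, which was 41.3 units there. The share of all genes lower on each array was not counted.

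Other markers of the uterus were mostly undetected. None of 12 genes of decidual natural killer cells, such as the granzymes Gzmd, Gzme, Gzmf and Gzmg, could be tested, and 9 of them were above background in no channel. Of 10 genes of uterine epithelium and glands, 8 were on the array, 4 were above background in no channel and 2 were tested. The shares over all genes were 31.9% above background in no channel and 54% tested. S100g, a calcium-binding protein, fell by 0.91 ± 0.10 on the log2 scale (SE, limma adjusted p = 9.47e-07), and Wnt7a, a secreted WNT ligand, rose by 0.40 ± 0.11 (SE, limma adjusted p = 0.0187). Wnt7a read 0.18 without replicate 2, 0.63 without replicate 1 and 1.09 with processed signals, and its call ended with the mean over probes (adjusted p = 0.0525) and with arrays 1 and 4 alone (adjusted p = 0.0966). With median centring S100g read -0.54 (adjusted p = 0.763). Neither is limited to the uterus: S100g is also made by the yolk sac, and Wnt7a by ectoderm of the embryo.

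The trophoblast lists that hold the other 4 genes showed small differences in both directions. Of all genes tested, 3.23% were higher and 4.33% lower. Over the array 54% of genes were tested and 31.9% were above background in no channel. In the ectoplacental cone and spongiotrophoblast list (Tpbpa, Ascl2), 5 of 15 genes were tested and 1 fell, Plac1, a placental membrane protein gene, by 0.47 ± 0.10 (SE, limma adjusted p = 0.00439). Plac1 read -0.31 without replicate 2 and -0.13 with median centring (adjusted p = 0.970). The pregnancy-specific glycoproteins Psg18 and Psg19, the Tpbpa paralogue Tpbpb and the spongiotrophoblast prolactins Prl5a1, Prl7a2, Prl7b1 and Prl8a9 were above background in no channel. In the chorion and syncytiotrophoblast list (Gcm1), 5 of 9 genes on the array were tested and 1 fell, the lactate transporter gene Slc16a3, by 0.50 ± 0.10 (SE, limma adjusted p = 0.00169). With median centring of the arrays Slc16a3 read 0.092 (limma adjusted p = 0.996), where the median of all genes tested was 0.28.

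In the stem cell and extraembryonic ectoderm list (Elf5), 6 of 9 genes were tested and 2 rose, against 3.23% of all genes tested. The median was 0.22 over the tested genes of the list. Tfap2c, an AP-2 transcription factor gene, was at 0.45 ± 0.10 (SE, limma adjusted p = 0.00388), and Fgfr2, the receptor for FGF4, was at 0.35 ± 0.10 (SE, limma adjusted p = 0.0363). Eomes, a defining factor of trophoblast stem cells, was above background in no channel, and Esrrb in 4 of 8. The other probes of Fgfr2 read 0.16 and 0.07, and without replicate 2 it was at 0.19. Its call ended with processed signals (0.47, adjusted p = 0.0571), the mean over probes (0.25, adjusted p = 0.130), arrays 1 and 4 alone (adjusted p = 0.191) and arrays 2 and 3 alone (adjusted p = 0.0566). With median centring Tfap2c read 0.69 and Fgfr2 0.56, neither called (adjusted p = 0.763). In the giant cell list, 7 of 12 genes on the array were tested and 2 rose, the placental lactogen genes above. Hand1, a giant cell factor also made by mesoderm, was at 0.24 (limma adjusted p = 0.195).

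Over the 7 lists of decidua, uterus and trophoblast together, which include the 5 markers, 31 of 77 genes on the array were tested. Of these, 5 rose and 4 were lower, against 3.23% and 4.33% of all genes tested. The 4 lower genes include Prl8a2, which was chosen on this contrast. Of the 31 genes 22 were not called, and the median ratio was 0.05. A further 28 of the 77 were above background in no channel, where the share over all genes was 31.9%. With the background estimated without outlier spots 6 were higher and 5 lower (3.06% and 5.65% of all genes tested), and with processed signals 5 and 6 (4.19% and 7.05%). Arrays 1 and 4 alone called 1 gene higher and arrays 2 and 3 alone called 2, and limma called 0 in either direction with median centring or with no filter on dim probes (580 and 3721 genes over the array at an unadjusted p under 0.05).

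**Figure D4:**
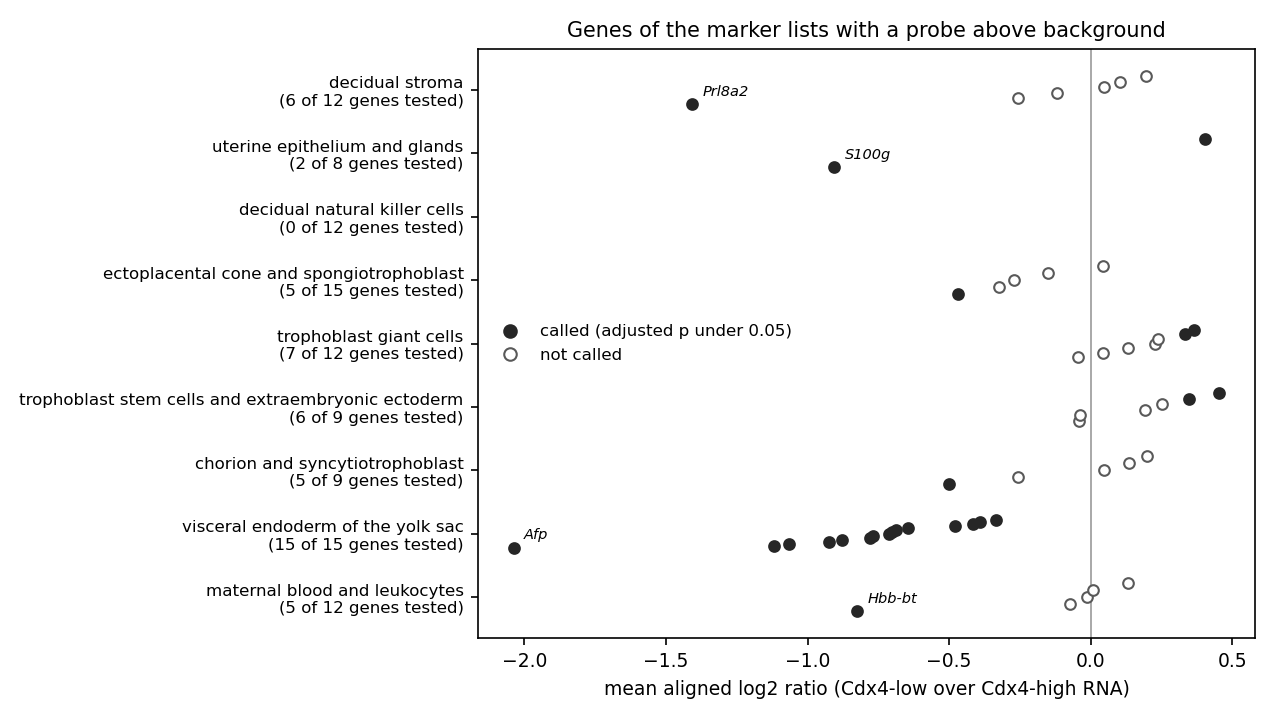
Mean aligned log2 ratio of Cdx4-low over Cdx4-high RNA (x axis) of each tested gene of the marker lists (rows), with called genes filled and the others open. Prl8a2 at -1.41 stands apart from the other tested genes of decidual stroma, and all 15 genes of the visceral endoderm lie below 0.

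Markers of another tissue moved with Prl8a2. The visceral endoderm, the absorbing epithelium of the yolk sac, is embryonic and lies between the embryo and the decidua. Its list was chosen with earlier results of these data known, so the values below are a description. All 15 genes of the list were tested and all 15 were called lower, with a median ratio of -0.71. Of all genes tested, 4.33% were called lower, but a list chosen on these data cannot be tested by them. Their summed processed signal was 46707 to 54880 units in Cdx4-low RNA over the 4 arrays and 97347 to 115309 units in Cdx4-high RNA, and each of the 15 was well above background in all 8 measurements. Afp, the alpha-fetoprotein gene, was at -2.04 ± 0.10 (SE) and Cubn, an endocytic receptor gene, at -1.12. Rbp4, which carries retinol, was at -1.07 and Spp2 at -0.93. Limma called 0 of the 15 with median centring of the arrays, where Cubn read -0.61 and Rbp4 -0.47 (580 genes over the array had an unadjusted p under 0.05), and 1 with no filter on dim probes. Their part in the Prl8a2 result was not tested.

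Genes of maternal blood and leukocytes, a list of 13 with 12 on the array, gave 5 tested genes. Of these 1 was called, as lower, against 4.33% of all genes tested. The summed processed signal of the 5 was 1185 to 1460 units in Cdx4-low RNA and 2147 to 2297 units in Cdx4-high RNA. Without Hbb-bt, an adult beta globin gene, the other 4 summed to 315 to 391 units in Cdx4-low RNA and 295 to 377 units in Cdx4-high RNA. Those were C1qb (0.13) and H2-Ab1 (0.01), well above background in 8 of 8 measurements, Cd74 (-0.07) in 7 and Cd52 (-0.01) in 6, none of them called. Lyz2 was well above background in 2 measurements, C1qa in 1, and Ptprc, S100a8, S100a9, Ngp and Camp in 0. Hbb-bt fell by 0.82 ± 0.10 on the log2 scale (SE, limma adjusted p = 2.78e-06), and its 4 probes read -0.54, -0.82, -0.61 and -0.75. The Hbb-bt call ended with median centring (-0.49, adjusted p = 0.763) and with no filter on dim probes (adjusted p = 0.0732). The embryonic globins, which come from the blood islands of the embryo's own yolk sac, lay the other way: Hbb-bh1 was at 1.35 ± 0.10 (SE, limma adjusted p = 2.32e-09) and Hbb-y at 0.72 ± 0.11 (SE, limma adjusted p = 6.28e-05). The adult globin is also made by the fetus later in gestation, and the part of blood in the Prl8a2 result was not tested.

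The genes whose 4 ratios lay nearest to those of Prl8a2 were Cubn (root mean square difference 0.34 on the log2 scale), Dgkk (0.39), Sparcl1 (0.40), BC020150 (0.42) and the unnamed probe A_52_P1053544 (0.45). The order followed the background treatment. Afp was the nearest with the background estimated without outlier spots, at 0.28, and Hoxaas3 with processed signals, at 0.18, followed by Afp at 0.23. These likenesses rest on 4 arrays of the same slide and describe only the size of the ratios.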

How the data were processed

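Per the labels, posterior tissue of Cdx2+/-Cdx4-/- and wildtype embryos was hybridised to 4 Agilent 2-colour arrays. Per the submitters' processing notes, the scanner output came from Agilent Feature Extraction 9.5.3. Per the file headers, the deposited files hold an intensity for each spot and dye, with local background, and Agilent's processed intensity. A log10 ratio (Cy5 over Cy3) with a p-value is also given, per the file headers. Ratios on a log10 scale make up the authors' series table: with a tolerance of 1e-05, 100% of features equalled the scanner log10 ratio on arrays 1 and 3 and its negative on arrays 2 and 4, with a median of 0 in each column.

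Intensities were corrected by normexp (offset 50) and normalised by loess in limma 3.58.1 (R 4.3.3). Control spots were dropped afterwards, as were 103 to 167 outlier spots on each array, and spots of a probe were averaged. Testing needed a probe well above background in 1 RNA or both on all 4 arrays, and took the brightest such probe of a gene. The 2 arrays of each labelled replicate were averaged, and lmFit and eBayes were run on the 2 means over all 14887 genes, with Benjamini-Hochberg adjustment and a threshold of 0.05. With 24.2 prior degrees of freedom, the standard errors are largely pooled over genes. All arrays lie on 1 slide, so slide could not be tested as a batch. Each channel had 50.6% to 64.9% of its spots well above background, and the number of arrays limits the precision.

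Of 41174 probes, 23366 were named through a RefSeq accession, 6739 by a current symbol, 2918 by an older symbol and 8151 by the name in the file. Named genes were the 5 markers, up to 4 called genes per list with the largest ratio and 1 sign on all arrays, the called genes of the prolactin family, the 5 genes nearest to Prl8a2, and small counts. The markers, lists and tests were chosen with earlier results of these data known. The alternatives were other pairings, directions, background treatments, normalisations, filters, probe rules and subsets of arrays. The fit was tested on simulated data.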

Additional observations from a re-analysis of the deposited data

How the results depend on the processing

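Precision is limited by 4 arrays and by background, most for dim probes. Prl8a2 kept its sign under every alternative tried, averaging -1.79 with the background estimated without outlier spots (chosen after seeing the data) and -2.29 with processed signals or the series table, except that with genotypes as labelled the arrays cancel to -0.014. Elf5 stayed positive in every setting run with aligned arrays and read -0.015 with genotypes as labelled. The counts depended far more on the setting. Against 481 genes higher and 644 lower over the array, and 5 and 4 in the 7 lists, the dye-balanced pairing called 3356 and 2900, and 13 and 10, and the third pairing 4465 and 3734, and 14 and 10. Leaving out each replicate, with the 2 arrays of the other taken as 2 values of the same dye orientation, gave 3102 to 3213 higher and 1979 to 3586 lower over the array, and 11 higher and 7 to 9 lower in the lists. Processed signals and the series table called 1050 lower. The mean over probes called 3 list genes higher. Arrays 1 and 4 alone, chosen after seeing the data, called 237 and 379 over the array and 1 list gene higher; arrays 2 and 3 alone called 280 and 323, and 2. With median centring, which moved the median of all genes to 0.28, limma called 6 and 2 over the array, 0 and 0 in the lists and 0 of the visceral endoderm genes (580 genes at an unadjusted p under 0.05), and Slc16a3 turned to 0.092. With no filter, 27573 genes were tested, and limma called 10 and 4 over the array, 0 and 0 in the lists and 1 visceral endoderm gene (3721 unadjusted). With genotypes as labelled, limma called 3 and 26 over the array, 0 and 0 in the lists and 0 of the visceral endoderm genes (287 unadjusted). There the signs turned, at sizes near 0, for Slc16a3 (0.022), Plac1 (0.0073), Hbb-bt (0.0061), Prl3d1 (-0.0060), Tfap2c (-0.0072), Fgfr2 (-0.048), S100g (0.013), Wnt7a (-0.053), Afp (0.010), Cubn (0.0083) and Rbp4 (0.082), since the arrays run against each other. The cause of the other changes was not tested.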
